A study of Danio rerio with 4 samples.

Results

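The enzymes of glycolysis and gluconeogenesis described here are encoded by 10 zebrafish genes, pfkma, fbp2, pgam2, eno3, pkma, aldoab, gapdh, ldha, pgk1 and tpi1b, and were measured in hearts of ccm2 mutant and wild-type (WT) embryos. They were selected on the mutant against WT difference in signal on these same arrays and then matched to probes by symbol, so their own differences are given as a description, without a test, and support nothing. Of the 10 genes, 9 had a probe annotated to them, among 14432 gene symbols on the array, and each of the 9 had 1 probe. pgam2, a phosphoglycerate mutase gene, had no annotated probe and was not analysed here.

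Hearts were dissected by hand from embryos at 72 hours post fertilization (hpf), and RNA was labelled with Cy3 and hybridised to single-colour Agilent arrays. The ccm2 mutants carried the m201 allele, and whether they were homozygous is not given in the sources used here. Ccm2 is a scaffold of the protein complex that is lost in cerebral cavernous malformations, and it works in endothelium and endocardium. The mutant group had 2 samples and the WT group had 2, each a pool of hearts on 1 array with 200 ng of RNA, and all 4 arrays lay on 1 slide. A free-text label of both mutant samples speaks of Bmp2b overexpression, whereas their titles and genotype name the ccm2 mutation alone, and the labels do not settle this. The labels do not say whether different clutches supplied the pools, and p-values therefore measure only the spread between these samples.

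Glycolysis splits glucose into pyruvate in the cytosol and yields ATP without oxygen, and lactate dehydrogenase then converts pyruvate to lactate and regenerates NAD+. Gluconeogenesis runs most of these steps in reverse and bypasses the irreversible ones with its own enzymes, among them fructose-1,6-bisphosphatase. Embryonic heart muscle, skeletal muscle and red blood cells all use glycolysis, and in zebrafish many of its enzymes are encoded by pairs of duplicated genes with a and b names.

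Features well above background made up 54.0% to 55.9% of an array, and 0 features were saturated. Array to array correlations of log2 signal were 0.975 between the mutant arrays and 0.973 between the WT arrays, against 0.915 to 0.924 across the genotypes. Heart muscle markers fitted the labelled tissue: their summed scaled signal was 248030 and 186070 on the mutant arrays, against 236510 and 214360 on the WT arrays, and limma called 0 of 9 in either direction (0 at an unadjusted p under 0.05). The WT arrays differed from each other in markers of liver, yolk and gut. These summed to 11966 and 10995 on the mutant arrays, against 33508 on WT 1 and 4908 on WT 2. Results that rest on WT 1 are therefore given with and without it. In whole hearts, fewer cells of a type and less RNA per cell cannot be told apart.

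Signals are given as scaled processed signal, in arbitrary units: each array's processed signal was divided by its 75th percentile and multiplied by 179.9, the geometric mean of those percentiles. Values of different probes are not compared as levels, since each probe has its own response. Summed signals of a list are compared between arrays only, and its brightest probes weigh most in them. Both mutant arrays lay below both WT arrays for 6 of the 9 measured members and the groups overlapped for the other 3, where 35.2% of all 11525 tested genes had both mutant arrays below both WT arrays and 32.6% had both above. These shares are printed for scale only, because this contrast was known when the genes were named. The log2 difference, mutant minus WT, lay below 0 for 9 of 9 members, with a median of -0.66, beside -0.04 over all tested genes. The members fell into groups of unlike size: pfkma and fbp2 were dim in mutants, tpi1b, pkma, eno3 and pgk1 were bright in both genotypes and lower in both mutant samples, and aldoab, gapdh and ldha had overlapping arrays. All 9 passed the filter on dim probes, but pfkma and fbp2 did so only through the WT arrays.

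**Figure D1:**
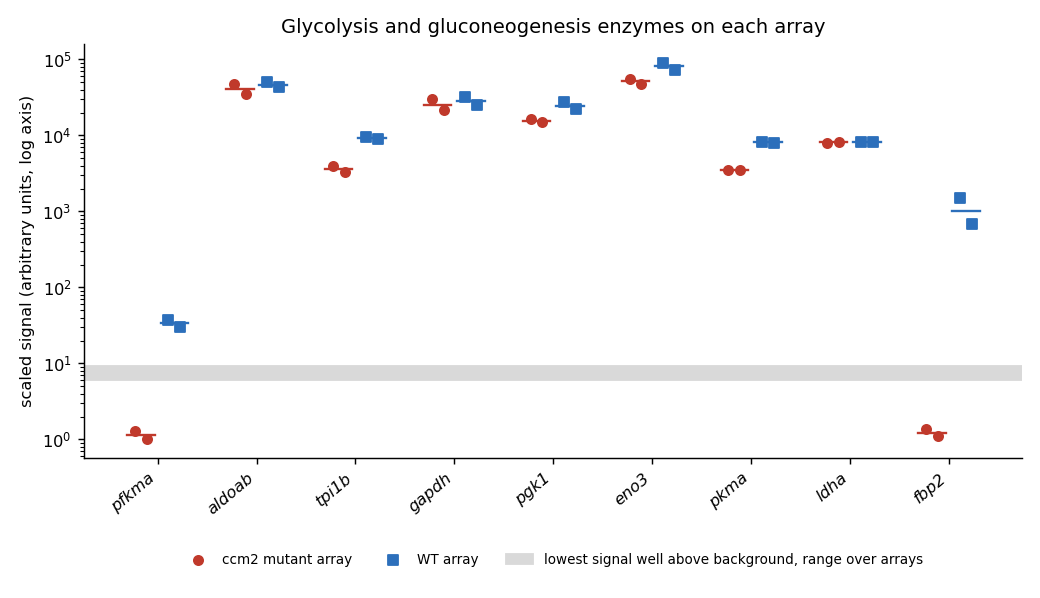
Scaled processed signal (arbitrary units, log axis) of the 9 measured enzymes in pathway order, with fbp2 last; each point is 1 array (2 ccm2 mutant, left; 2 WT, right), lines are group means on the log scale, and the grey band is the range over arrays of the lowest signal well above background. pfkma and fbp2 lie under the band on both mutant arrays and above it on both WT arrays, and aldoab, gapdh and ldha overlap between the groups.

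Phosphofructokinase commits fructose 6-phosphate to glycolysis, and fructose-1,6-bisphosphatase undoes that step in gluconeogenesis. pfkma, which encodes a muscle-type phosphofructokinase, had scaled signals of 1.29 and 1.02 on the mutant arrays, against 37.8 and 30.6 on the WT arrays. It was not well above background on either mutant array and was well above background on both WT arrays. Where a group was never well above background, the fold is a bound, taken against the lowest signal that was well above background on each array. Such a bound holds for the processed signal only. On that basis the mutant signal of pfkma was at least 5.13-fold lower. Its raw median signal was 25 and 23.5 on the mutant arrays, against 62 and 57 on the WT arrays, beside raw medians of 34.5 to 35 over all features of an array. The WT signal of pfkma is thus a dim one that stands clear of the mutant signal.

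fbp2 encodes fructose-1,6-bisphosphatase 2, the muscle form of this enzyme in mammals. It had scaled signals of 1.35 and 1.104 on the mutant arrays, against 1497 on WT 1 and 687 on WT 2. No mutant array had it well above background, so it was at least 153-fold lower there, the lowest estimate of the 9 members. The raw median signals showed the same contrast before any correction, at 24 and 23 on the mutant arrays, against 1558 and 785 on the WT arrays. The 2 WT arrays themselves differed by more than 1 log2 unit, and without WT 1 the mutant signal stayed far under that of WT 2. Background handling set the size of both values: with normexp on the raw signal the log2 difference was -4.52 for fbp2, beside -9.70 with the processed signal, and -0.87 for pfkma, beside -4.89. On the log2 scale the bounds were -7.26 for fbp2 and -2.36 for pfkma. Both normexp values were smaller in size than these, so the bounds do not hold under normexp.

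Aldolase cleaves fructose 1,6-bisphosphate into a pair of triose phosphates, and triosephosphate isomerase interconverts them. aldoab, an aldolase A gene, had scaled signals of 46996 and 35171 on the mutant arrays, against 50383 and 43250 on the WT arrays. The groups overlapped, since mutant 1 lay above WT 2, and the log2 difference was -0.20 ± 0.24 (SE of the limma fit, 2 arrays per group). Here and below this SE also draws on the variance of all tested probes, so it is not the spread of the gene's own arrays alone. tpi1b, a triosephosphate isomerase gene, had 3981 and 3317 on the mutant arrays, against 9392 and 9071 on the WT arrays. Both mutant arrays were lower, with a log2 difference of -1.34 ± 0.19, a signal 2.54-fold higher in WT. The tpi1b probe was printed as 5 spots on each array. Its spots ranged over 3539 to 4303 on mutant 1 and 3018 to 3713 on mutant 2, against 8660 to 10241 on WT 2, so no spot of a mutant array reached the lowest spot of WT 2. The coefficient of variation over the 5 spots was 7.12% and 9.39% on the mutant arrays, against 3.79% and 7.23% on the WT arrays.

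Glyceraldehyde-3-phosphate dehydrogenase oxidises the triose and makes NADH, and phosphoglycerate kinase makes the pathway's earlier ATP. gapdh had scaled signals of 29687 and 21369 on the mutant arrays, against 32285 and 24952 on the WT arrays. The arrays overlapped, with mutant 1 above WT 2, and the log2 difference was -0.17 ± 0.27. pgk1 had 16245 and 15048 on the mutant arrays, against 27147 and 22249 on the WT arrays. Both mutant arrays lay under both WT arrays, and the log2 difference of pgk1 was -0.65 ± 0.20, a signal 1.57-fold higher in WT.

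Enolase forms phosphoenolpyruvate and pyruvate kinase turns it into pyruvate with the later ATP of the pathway. eno3, the muscle enolase gene of mammals, had scaled signals of 55989 and 47013 on the mutant arrays, against 90153 and 73399 on the WT arrays. Both mutant arrays were lower, at 0.631 times the WT signal (log2 difference -0.66 ± 0.22). pkma, a gene for the M type of pyruvate kinase, gave nearly equal values within each genotype: 3530 and 3526 in mutants, against 8245 and 8016 in WT. Its log2 difference was -1.204 ± 0.17, a signal 2.30-fold higher in WT.

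Lactate dehydrogenase A favours the conversion of pyruvate to lactate. ldha had scaled signals of 7939 and 8218 on the mutant arrays, against 8211 and 8089 on the WT arrays. The 4 arrays could not be separated by genotype, with a log2 difference of -0.01 ± 0.17. The sign of this value depended on the scaling: it was 0.06 with quantile normalization, 0.14 with each array's median and 0.20 with no scaling. aldoab and gapdh also turned positive with no scaling (0.02 and 0.04), and both did so without mutant 2 (0.01 and 0.06). Over all tested genes the median difference moved to 0.11 with median scaling and 0.17 with no scaling, so the 3 overlapping enzymes have no settled direction. pfkma, fbp2, tpi1b, pkma, eno3 and pgk1 stayed below 0 under every alternative run. A left-out array could not turn the sign of these genes, since both mutant arrays lay below both WT arrays. The filter settings and probe averaging left the values they kept unchanged. Only quantile normalization, the other scalings and normexp could have turned a sign.

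**Figure D2:**
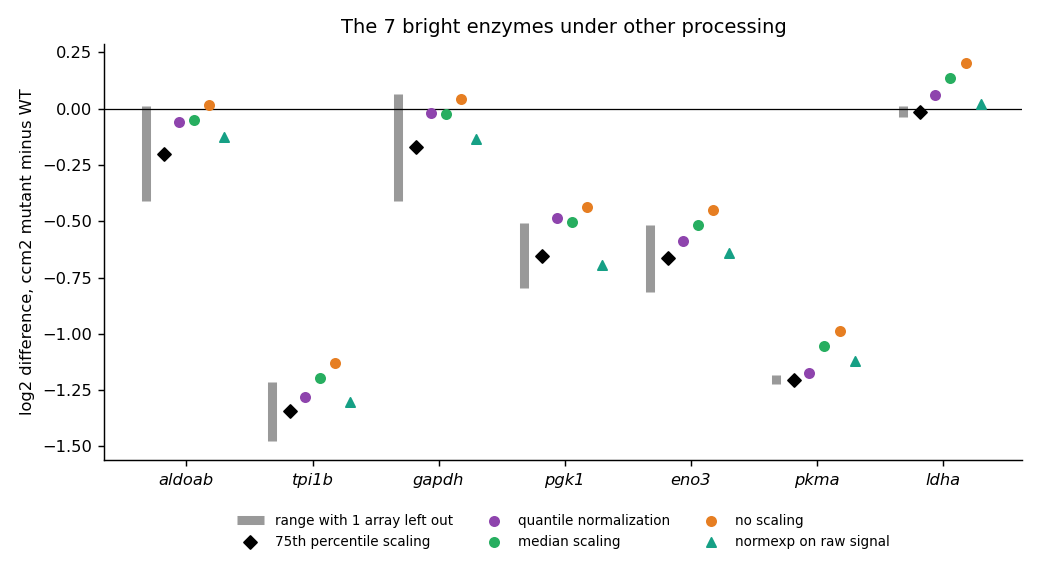
Log2 difference, ccm2 mutant minus WT, of the 7 enzymes well above background in both genotypes (y axis) under 5 ways of processing; grey bars span the values with 1 array left out in turn. tpi1b, pkma, eno3 and pgk1 stay below 0 throughout, while aldoab, gapdh and ldha lie near 0 and change sign.

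Arrays of the same genotype also differed. Of the 7 members well above background on all arrays, mutant 1 exceeded mutant 2 in 6, ldha being the exception and pkma nearly equal, and WT 1 exceeded WT 2 in 7. Over all tested genes these shares were 57.6% and 53.4%. On the mutant arrays pfkma and fbp2 lay too near the floor of the array to be ordered. The median deviations of the members from their own means were -0.27 and -0.46 on the mutant arrays, against 0.48 and 0.18 on the WT arrays (log2). Over these 4 arrays the named tested genes with the closest deviations were ms4a17a.17 (Euclidean distance 0.05), ypel1 (0.05), tmem11 (0.06), fignl1 (0.07) and wdr33 (0.07). Of 11516 tested genes, 185 lay within a distance of 0.2 and 28 within 0.1. Whether this is many or few for a pattern over 4 arrays was not tested.

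The other enzymes of the pathway were tested in one limma fit over all 26824 tested probes, with Benjamini-Hochberg adjustment and a threshold of 0.05. Of 38 other glycolysis and gluconeogenesis enzymes listed, 31 were on the array and 30 were tested. In mutants 12 fell and 0 rose, and 18 did not pass. Over all 30, the called ones included, 16 were lower and 1 higher at an unadjusted p under 0.05. Of the 12, aldoca and eno4 were not well above background in mutants and passed the filter through the WT arrays. Among all tested genes 9.03% were called lower and 8.1% higher. The median log2 difference of the 30 was -0.99, beside -0.04 over all tested genes, and both mutant arrays lay below both WT arrays for 17 of them, above for 3 and overlapped for 10. The count rested on all 4 arrays: limma called 0 lower without mutant 1 (16 at an unadjusted p under 0.05), 0 without mutant 2 (15), 2 without WT 1 (14) and 2 without WT 2 (18). The median lay nearer 0 in some alternatives, at -0.84 with median scaling, -0.78 with no scaling and -0.54 with normexp on the raw signal.

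**Figure D3:**
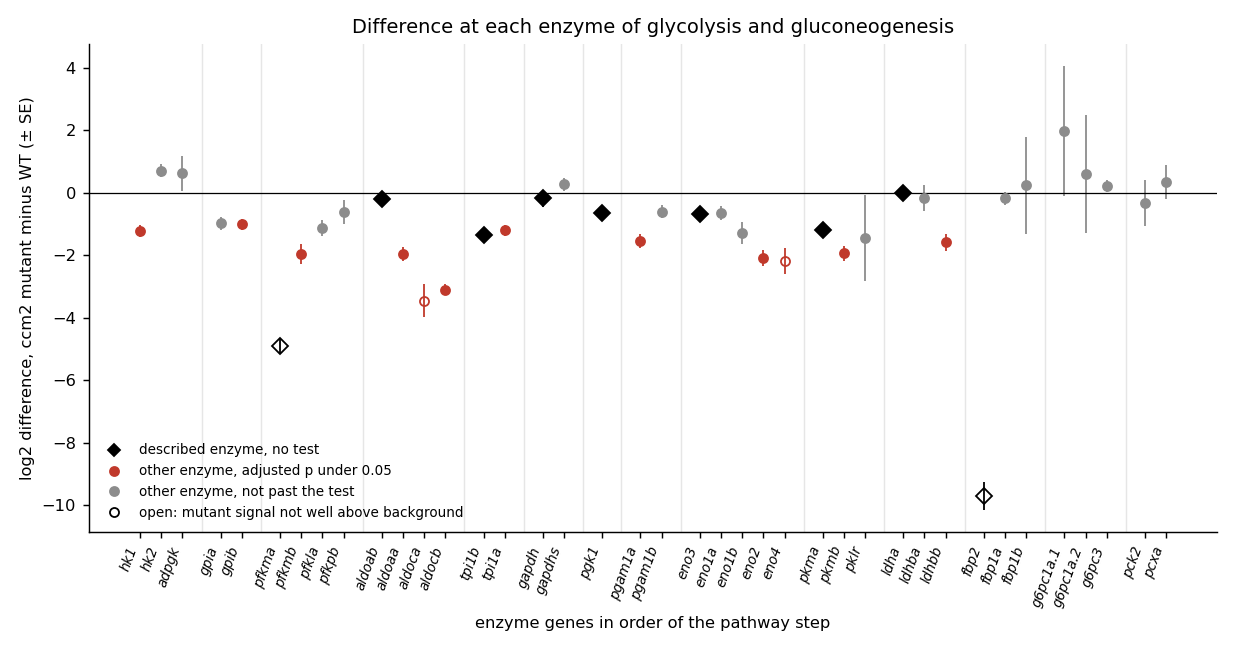
Log2 difference, ccm2 mutant minus WT, with its SE (y axis) for each enzyme gene in order of its pathway step (x axis; grey lines separate steps). Diamonds are the described enzymes, which were not tested, red points the 12 other enzymes with an adjusted p under 0.05, all below 0, and open symbols genes whose mutant signal was not well above background.

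At the steps that hold the measured members, 9 of 18 other tested enzymes fell, at 6 of the 8 steps where another enzyme was tested. At the aldolase step all 3 tested paralogs fell. aldocb, a C-type aldolase gene, had scaled signals of 551 and 482 on the mutant arrays, against 4547 and 4294 on the WT arrays. This was a log2 difference of -3.10 ± 0.18 (limma, adjusted p = 0.00763), and a further aldocb probe gave the same difference of -3.10. aldoaa, the duplicate of aldoab, had 5425 and 7239 on the mutant arrays, against 23125 and 25368 on the WT arrays (log2 difference -1.95 ± 0.23, limma adjusted p = 0.0180). The aldolase A duplicates thus gave separate values, -1.95 for aldoaa and -0.20 for aldoab, but the difference between them was not tested. aldoca was not well above background on either mutant array and passed the filter through the WT arrays. As a bound, aldoca was at least 2.08-fold lower in mutants. Its fitted log2 difference, taken from the dim processed signals themselves, was -3.45 (limma adjusted p = 0.0290). The p-values of this and other bounded genes belong to the fitted differences and not to the bounds.

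At the phosphofructokinase step pfkmb, the duplicate of pfkma, had scaled signals of 305 and 522 on the mutant arrays, against 1508 and 1580 on the WT arrays. It fell by 1.95 ± 0.32 on the log2 scale (limma adjusted p = 0.0341), and a further pfkmb probe gave -2.20 without passing. The call held in 4 of 8 alternatives other than a left-out array. The liver-type and platelet-type genes did not pass: pfkla had -1.12 (limma adjusted p = 0.0612) and pfkpb had -0.61 (0.349), while pfklb was too dim to test. Neither of the other fructose-1,6-bisphosphatase genes passed. fbp1a had scaled signals of 422 and 376 on the mutant arrays, against 503 and 403 on the WT arrays, with overlapping groups (log2 difference -0.18, limma adjusted p = 0.611). fbp1b is described with the WT arrays below.

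tpi1a, the duplicate of tpi1b, had scaled signals of 587 and 567 on the mutant arrays, against 1274 and 1372 on the WT arrays, and fell by 1.196 ± 0.17 on the log2 scale (limma adjusted p = 0.0262). Its further probe gave -1.29 and also passed. gapdhs, the other glyceraldehyde-3-phosphate dehydrogenase gene, did not pass on any of its 3 probes, which gave 0.27, 1.03 and 0.12. For the mutase step, where pgam2 was not analysed, pgam1a had 3036 and 2555 on the mutant arrays, against 8904 and 7350 on the WT arrays. It fell by 1.54 ± 0.21 on the log2 scale (limma adjusted p = 0.0244), and pgam1b had -0.60 (0.152). Both mutant arrays were lower for either gene.

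The enolase genes differed in level of evidence. eno2, the neuronal enolase gene of mammals, was dim, with scaled signals of 8.67 and 6.17 on the mutant arrays, against 33.1 and 29.0 on the WT arrays (log2 difference -2.08 ± 0.25, limma adjusted p = 0.0191). eno4, not well above background on either mutant array, was at least 1.89-fold lower. Its fitted log2 difference was -2.18 (limma adjusted p = 0.0461). However, a further eno4 probe was too dim to test and had its highest signal on mutant 1. eno1a, a gene for the widely expressed enolase, had 27849 and 21815 on the mutant arrays, against 41334 and 35348 on the WT arrays, and did not pass (log2 difference -0.63, limma adjusted p = 0.141). eno1b had -1.29 and did not pass (0.0942).

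pkmb, the duplicate of pkma, had scaled signals of 221 and 252 on the mutant arrays, against 1039 and 789 on the WT arrays, and fell by 1.94 ± 0.23 on the log2 scale (limma adjusted p = 0.0182). Among the B-type lactate dehydrogenase genes, which favour the reverse reaction, ldhbb fell by 1.58 ± 0.27 on the log2 scale (limma adjusted p = 0.0362), and the call held in 2 of 7 alternatives other than a left-out array. The probes of ldhba disagreed. Its brightest probe had 19727 and 17808 on the mutant arrays, against 30721 on WT 1 and 14659 on WT 2, and did not pass (log2 difference -0.18, limma adjusted p = 0.805). The other ldhba probes gave -1.40 and -1.55, and both passed (limma adjusted p = 0.0249 and 0.0203).

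The steps above phosphofructokinase hold no member, and their genes were picked for mention after their values were seen. Hexokinase traps glucose in the cell as glucose 6-phosphate. hk1 had scaled signals of 1334 and 1612 on the mutant arrays, against 3419 and 3421 on the WT arrays, and fell (log2 difference -1.22, limma adjusted p = 0.0308). hk2 had 119.9 and 100.6 on the mutant arrays, against 63.1 and 71.4 on the WT arrays, and did not pass (0.71, limma adjusted p = 0.0929). Both glucose-6-phosphate isomerase genes were lower on both mutant arrays. gpib passed at -1.01 (limma adjusted p = 0.0406), and gpia did not at -0.98 (0.0560). The call held in 5 of 8 alternatives other than a left-out array for hk1 and in 4 of 8 for gpib.

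Of the 12 enzymes called lower, 3 kept the call in every alternative, other than a left-out array, in which they were tested: aldoaa, aldocb and eno2. The highest adjusted p over those alternatives was 0.0443 for aldoaa, 0.0371 for aldocb and 0.0427 for eno2. The other 9 lost it in at least 1 alternative, from ldhbb, which held in 2 of 7, to pgam1a and pkmb, which held in 7 of 8. The lists of other enzymes and of linked pathways were drawn up with earlier results of these data known, so their counts are not independent evidence of a direction.

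Several gluconeogenic and liver-type genes separated the WT arrays from each other and could not be read between genotypes. Apart from fbp1b and pklr they were chosen after their values were seen. g6pc1a.1 and g6pc1a.2 encode glucose-6-phosphatase, which releases free glucose. g6pc1a.1 had scaled signals of 52.3 and 50.4 on the mutant arrays, against 99.8 on WT 1 and 1.73 on WT 2. g6pc1a.2 had 141 and 168 on the mutant arrays, against 629 on WT 1 and 16.3 on WT 2. In both genes the mutant arrays lay between the WT arrays.

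The same order held for fbp1b, the fructose-1,6-bisphosphatase 1 gene, with 148 and 138 on the mutant arrays, against 547 on WT 1 and 26.7 on WT 2. pklr, the liver and red cell pyruvate kinase gene, had 250.5 and 246 on the mutant arrays, against 2536 on WT 1 and 179 on WT 2. The mitochondrial PEP carboxykinase gene pck2 had 283 and 402 on the mutant arrays, against 836 on WT 1 and 212 on WT 2. Of the liver glycogen genes, pygl had 477 and 432 on the mutant arrays, against 865 on WT 1 and 74.6 on WT 2, and gys2 had 45.2 and 21.6, against 137 on WT 1 and 7.26 on WT 2. None of these genes passed with all arrays. Which WT array was kept set the direction. Without WT 1, limma called 3 other enzymes higher in mutants, fbp1b, g6pc1a.1 and g6pc1a.2 (adjusted p = 0.0496, 0.0358 and 0.0417), and also pygl (0.0462). Without WT 2, it called pklr lower (adjusted p = 0.0479). With 1 WT array the spread within a group comes from the mutant arrays alone, the lone WT array is assumed to vary like them, and genes picked for WT 2 being lowest are bound to turn upward without WT 1, so these calls are no evidence of a difference between the genotypes.

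The liver marker fabp10a had scaled signals of 450 and 399 on the mutant arrays, against 9496 on WT 1 and 1320 on WT 2, and tfa, the transferrin gene, had 9331 and 8833, against 22119 on WT 1 and 3431 on WT 2. Liver, yolk and gut markers passed in 0 of 6 tested genes (limma, 1 lower at an unadjusted p under 0.05). Their part in the values of the gluconeogenic genes was not tested. Among the 9 measured members, 6 had the array order of fabp10a, highest on WT 1, then WT 2, then the mutant arrays. They were pfkma, fbp2, eno3, pkma, pgk1 and tpi1b. This order was not shared by the rest of the list. Of the 6 tested markers, each counted through its brightest probe, 1, fabp10a, had both mutant arrays below both WT arrays, 2 had both above and 3 overlapped. The part of liver RNA in the values of those 6 members was likewise not tested.

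**Figure D4:**
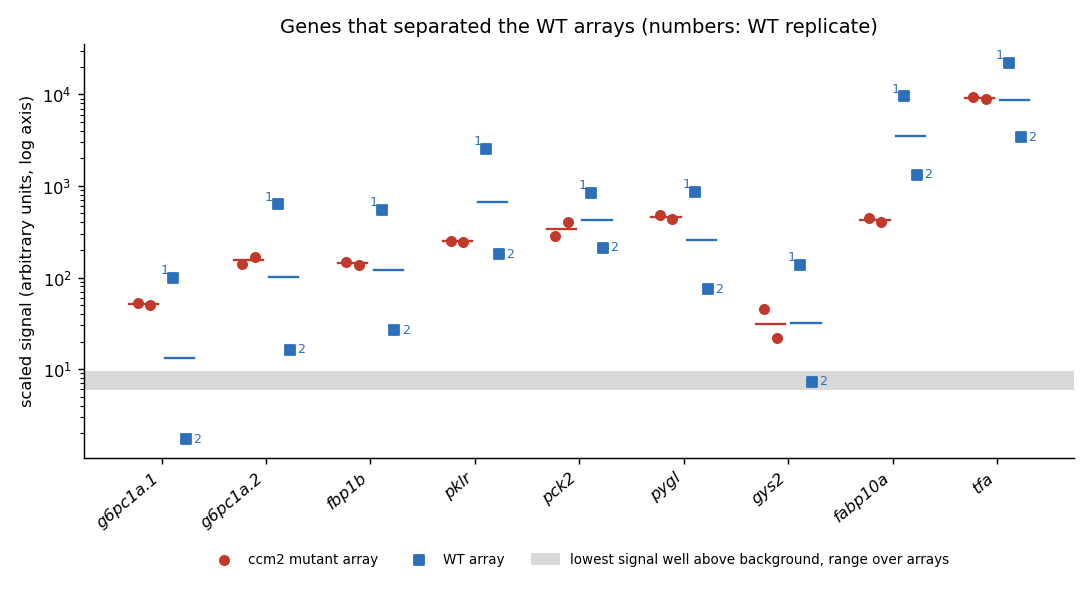
Scaled processed signal (arbitrary units, log axis) of gluconeogenic and liver-type genes and of 2 liver markers, fabp10a and tfa; each point is 1 array (ccm2 mutant left, WT right, WT replicates numbered), lines are group means on the log scale, and the grey band is the lowest signal well above background. WT 1 is the highest array and WT 2 the lowest for every gene drawn except fabp10a, where the mutant arrays are lowest.

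The pathways that feed glycolysis or use its products were tested in the same fit. Of 93 genes listed, 73 were on the array and 66 were tested, of which 8 rose and 13 fell in mutants and 45 did not pass. Over all 66, the called ones included, 14 were higher and 22 lower at an unadjusted p under 0.05. Among all tested genes 17.1% were called in either direction, 8.1% higher and 9.03% lower. The count of each linked list below is to be read beside these shares, and the lists are small. The median log2 difference of the 66 was -0.27. Without mutant 1 and without mutant 2 limma called 0 of them in either direction (12 and 11 higher, 20 and 22 lower at an unadjusted p under 0.05). Without WT 1 it called 2 higher and 2 lower, and without WT 2 it called 0 higher and 1 lower (10 higher at an unadjusted p under 0.05).

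**Figure D5:**
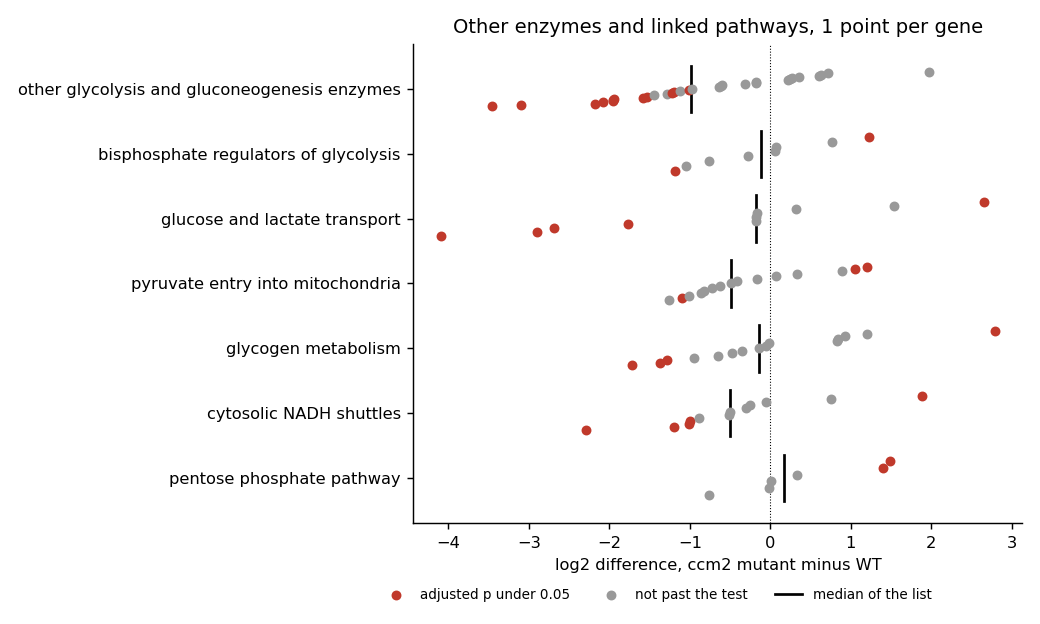
Log2 difference, ccm2 mutant minus WT (x axis), for each tested gene of the other glycolysis and gluconeogenesis enzymes and of 6 linked pathways (rows; the height of a point within a row has no meaning), with red for an adjusted p under 0.05 and a bar at the median of each list. The other enzymes have their median at -0.99 and the pentose phosphate pathway at 0.17.

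Transport held the largest difference among the linked lists: of 10 tested genes of glucose and lactate transport, 1 rose and 4 fell. slc16a3b encodes a monocarboxylate transporter that exports lactate from glycolytic cells in mammals. It had scaled signals of 125.7 and 121 on the mutant arrays, against 2022 and 2183 on the WT arrays, a log2 difference of -4.09 ± 0.17 (limma adjusted p = 0.00720). Its further probe gave -3.96, and the call held in every alternative except those that left out a mutant array. The lactate-forming enzyme gene ldha had overlapping arrays in the same samples. slc2a3a, a glucose transporter gene, had 10.6 and 7.31 on the mutant arrays, against 53.8 and 80.8 on the WT arrays (log2 difference -2.90 ± 0.33, limma adjusted p = 0.0173). slc2a1a, which encodes the widely expressed glucose transporter 1, was not well above background on either mutant array and at least 1.48-fold lower. Its fitted log2 difference was -2.69 (limma adjusted p = 0.0130). slc2a1a passed the filter through the WT arrays, with the same limit as aldoca and eno4. slc16a6b, a monocarboxylate transporter gene, had 80.8 and 83.6 on the mutant arrays, against 9.96 and 17.3 on the WT arrays, and rose by 2.65 ± 0.33 on the log2 scale (limma adjusted p = 0.0203).

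Of 8 tested regulators of glycolysis 1 rose and 1 fell, beside 8.1% and 9.03% of all tested genes. The bifunctional enzymes of this group set the level of fructose 2,6-bisphosphate, which activates phosphofructokinase and inhibits fructose-1,6-bisphosphatase. pfkfb4b had scaled signals of 3423 and 3802 on the mutant arrays, against 1419 and 1674 on the WT arrays. It rose by 1.23 ± 0.19 on the log2 scale (limma adjusted p = 0.0310), and its other probes gave 1.42 and 1.32 and passed as well. pfkfb2a was dim, with 10.3 and 9.88 on the mutant arrays, against 21.0 and 25.0 on the WT arrays. It fell (log2 difference -1.18, limma adjusted p = 0.0322), but the call held in only 1 of 7 alternatives other than a left-out array (highest adjusted p = 0.130).

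For pyruvate entry into mitochondria, 2 of 15 tested genes rose, 1 fell and the median was -0.49. pdk1, a kinase that switches off the pyruvate dehydrogenase complex, had scaled signals of 44.0 and 46.6 on the mutant arrays, against 17.4 and 22.1 on the WT arrays (log2 difference 1.204 ± 0.21, limma adjusted p = 0.0367). dldh, the E3 subunit of that complex, rose by 1.06 ± 0.20 on the log2 scale (limma adjusted p = 0.0439). pdhx, which anchors E3 to the complex, had 5744 and 4888 on the mutant arrays, against 12177 and 10500 on the WT arrays (log2 difference -1.09 ± 0.20, limma adjusted p = 0.0408). The called kinase gene, pdk1, thus lay above 0, and the called genes of the complex lay on either side, dldh above and pdhx below.

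Of 15 tested genes of glycogen metabolism 1 rose and 3 fell. gys1, the muscle glycogen synthase gene, had scaled signals of 269.8 and 377 on the mutant arrays, against 1035 and 1071 on the WT arrays (log2 difference -1.72 ± 0.24, limma adjusted p = 0.0247). The muscle glycogen phosphorylase duplicates went opposite ways. pygmb had 8664 and 7123 on the mutant arrays, against 21226 and 19441 on the WT arrays (log2 difference -1.37 ± 0.20, limma adjusted p = 0.0269). pygma was at least 6.01-fold higher in mutants, a bound because it was not well above background on the WT arrays. Its fitted difference passed (limma adjusted p = 0.00910), but its further probe did not (1.38). pgm1, which links glycogen to glucose 6-phosphate, fell by 1.29 ± 0.20 on the log2 scale (limma adjusted p = 0.0305).

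Shuttles carry the electrons of cytosolic NADH into mitochondria as an alternative to lactate formation. Of 12 tested shuttle genes 1 rose and 4 fell. mdh1ab, a cytosolic malate dehydrogenase gene, had scaled signals of 1625 and 1309 on the mutant arrays, against 8189 and 6196 on the WT arrays (log2 difference -2.29 ± 0.24, limma adjusted p = 0.0158), and its further probe gave -2.26. got2b, a mitochondrial aspartate aminotransferase gene, fell by 1.196 ± 0.18 on the log2 scale (limma adjusted p = 0.0282). slc25a11, the malate and oxoglutarate carrier gene, fell by 1.02 ± 0.17 (limma adjusted p = 0.0362), and its call held in 3 of 8 alternatives other than a left-out array. gpd1c, a glycerol-3-phosphate dehydrogenase gene, had 2127 and 1585 on the mutant arrays, against 545 and 451 on the WT arrays, and rose by 1.89 ± 0.24 on the log2 scale (limma adjusted p = 0.0219).

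The pentose phosphate pathway diverts glucose 6-phosphate to make NADPH and ribose. Of its 6 tested genes 2 rose and 0 fell by limma (1 lower at an unadjusted p under 0.05), with a median of 0.17. pgd, which encodes 6-phosphogluconate dehydrogenase, had scaled signals of 7523 and 6215 on the mutant arrays, against 2547 and 2620 on the WT arrays (log2 difference 1.40 ± 0.19, limma adjusted p = 0.0243). taldo1, the transaldolase gene, was at least 2.34-fold higher in mutants, a bound since it was not well above background on the WT arrays. Its fitted difference passed (limma adjusted p = 0.0276), but the call held in 4 of 7 alternatives other than a left-out array (highest adjusted p = 0.651). With no filter limma called 0 of 7 tested genes of this pathway.

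Of the 21 calls in the linked pathways, 2 of 8 rises and 4 of 13 falls kept the call in every alternative, other than a left-out array, in which they were tested. The rises were slc16a6b and gpd1c. The falls were slc2a1a, slc16a3b, mdh1ab and slc16a1b, a monocarboxylate transporter gene named here after its value was seen.

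Markers of other cell types also differed between the genotypes, where 8.1% of all tested genes were called higher and 9.03% lower. Red blood cell markers, whose cells rely on glycolysis in mammals, had 1 of 10 tested genes higher and 7 lower by limma, with a median log2 difference of -3.51. Their summed scaled signal was 15255 and 11762 on the mutant arrays, against 103250 and 91054 on the WT arrays, and gata1a was not well above background in mutants. Of 14 tested skeletal muscle markers 1 rose and 4 fell (median -0.59), with summed signals of 43865 and 34095 on the mutant arrays, against 57638 and 46938 on the WT arrays. These sums leaned on the brightest skeletal muscle markers, ckma and acta1b, which did not pass. ckma had 24175 and 19054 on the mutant arrays, against 26029 and 22456 on the WT arrays. The called ones, named here in full, were mylpfa (log2 difference -1.82), tnnt3a (-1.88), ckmb (-2.37), mylz3 (-3.10) and, higher, pvalb1 (3.02). Nervous system and retina markers had 5 of 7 lower (median -1.58) and summed to 429 and 450.3 on the mutant arrays, against 977 and 1869 on the WT arrays. crx, elavl3 and opn1lw1 were not well above background in mutants. Among these, crx was well above background on both WT arrays, elavl3 and opn1lw1 on 1 WT array each, and opn1lw1 was not tested. The falls of gata1a, crx and elavl3 were of genes that passed the filter through the WT arrays.

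Leukocyte markers rose in 8 of 8 tested genes (median 2.29), with summed signals of 5389 and 5457 on the mutant arrays, against 1283 and 1121 on the WT arrays. Among them csf1ra, named here for its dim signal, was not well above background on either WT array. Markers of endothelium and endocardium rose in 5 of 9 and fell in 0 (limma, 1 lower at an unadjusted p under 0.05), and summed to 106210 and 92899 on the mutant arrays, against 33671 and 33814 on the WT arrays. This sum leaned on aqp8a.1, with 42064 and 35616 on the mutant arrays, against 3631 and 3275 on the WT arrays. The 4 that did not pass, named here in full, were kdrl (log2 difference 0.23), cdh5 (0.49), fli1 (0.51) and nfatc1 (-0.94). Heart muscle markers lay on both sides of 0, from -0.50 to 0.88 with a median of 0.00, which was -0.25 without mutant 1 and 0.17 without mutant 2. The part of any of these cell types in the values of the glycolytic enzymes was not tested.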

How the data were processed

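RNA of 2 ccm2 mutant and 2 WT heart pools was measured. Intensity was deposited as the processed signal, background-subtracted and not scaled between arrays; per the file headers the software was Feature Extraction 10.5.1.1 by Agilent. The deposited raw median signal, also an intensity, served 1 alternative, and the deposited header file gave other statistics, such as how many features were well above background. Its block names and barcodes disagree for the mutant arrays, which are swapped within their group; block names were used. Columns of other samples numbered 0.

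The array holds 43803 features and 43603 probes, of which 50 were printed more than once and averaged. A gene symbol was given for 21061 features and none for 22742; 20133 symbols were updated through gene identifiers and 408 through accessions, and 520 were kept as the platform gives them. Each array's 75th percentile was subtracted from its log2 processed signals. The filter kept 26824 probes, 16555 of them named, that exceeded the 40th percentile on 2 or more of the 4 arrays. limma 3.58.1 (R 4.3.3) tested each probe two-sided through lmFit and eBayes, with 2 residual and 1.97 prior degrees of freedom. P-values were adjusted over all tested probes by Benjamini-Hochberg, and no other tool was run. A gene was counted through its brightest probe. The header states how many features per array were well above background (23634 to 24477), and the brightest features up to that number were counted as such. Only 2 arrays per group limit the precision.

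The members and all lists were chosen with earlier results of these data known. Named genes were all members; the paralogs at their steps; up to 3 rises and 3 falls of largest difference of each linked list; the 2 brightest genes of a marker list at most; and the 5 genes closest to the members' median deviations. Marker genes not well above background in mutants are named beyond this rule, and other exceptions are marked in the text. The fit was tested on simulated data. Alternatives were quantile normalization, median scaling, no scaling, normexp with an offset of 50 on the raw signal, no filter, a filter at the 60th percentile on all 4 arrays, probe averaging, the sample number as a block and each array left out. Deviations of same-numbered samples correlated at 0.07. With 2 arrays per group this cannot settle whether the numbers pair the samples, and the labels do not say. The main fit used no pairing. Figures were drawn with matplotlib 3.10.9.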

Additional observations from a re-analysis of the deposited data

How the results depend on the processing

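Over all genes, limma called 1975, against 2979 with normexp on the raw signal, 1118 with no filter, and 0 to 563 with 1 array left out: 0 without mutant 1 (3680 at an unadjusted p under 0.05), 0 without mutant 2 (3790), 563 without WT 1 and 236 without WT 2. With sample numbers used as the replicate block, limma called 874 genes, 4 other enzymes lower (against 12), 4 linked genes lower (against 13) and 3 higher (against 8); the numbers share no stated origin. With no filter these counts were 6, 6 and 3. The median of the other enzymes was -0.54 with normexp, against -0.99. With 1 array left out, 0 to 2 other enzymes were lower, 0 to 3 higher, 0 to 2 linked genes lower and 0 to 2 higher. The stricter filter called 1 other enzyme higher, hk2. Fewer samples or more tested probes are part of these settings; beyond that the cause was not tested.

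The median log2 difference of the members was -0.66, against -0.45 with no scaling and -0.81 to -0.52 with 1 array left out. Of 97 member values under the alternatives, 82 moved by less than 1 SD and 11 moved further with the same sign. The other 4 turned sign by more than 1 SD, all for ldha: 0.059 with quantile normalization, 0.14 with median scaling, 0.20 with no scaling and 0.021 with normexp. The SD was pooled from the member's own arrays within the groups. Many of the 82 were bound to stay within it. No filter, the stricter filter and probe averaging left each value they kept unchanged. A left-out array cannot shift a value by more than this SD. All moves beyond 1 SD came with quantile normalization, median scaling, no scaling or normexp. Dim signal limits pfkma and fbp2 in mutants to bounds, which hold for the processed signal and not under normexp.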
